A study of Mus musculus with 12 samples.

Results

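Mouse T cells that carried a RARα transgene label were compared with wild-type cells, both cultured with retinoic acid (RA). Of the 12 RNA-seq libraries of the series, 4 make up this comparison, chosen by their labels: replicates 1 and 2 labelled WT with 10 nM RA and replicates 1 and 2 labelled RARα TG with 10 nM RA. Genes were kept where at least 2 of the 12 libraries reached 1 FPKM (a level scaled for gene length and sequencing depth), which left 11922 of 52635. In all groups naive CD4 T cells of C57BL/6 mice had been stimulated by way of CD3 and CD28 over 24 h, in medium with charcoal-stripped serum. Each culture held a mixture that drives the interleukin-17-producing Th17 state: 10 ng/mL each of IL-21, IL-23 and IL-1β, 20 ng/mL of IL-6, 5 ng/mL each of TGFβ-1 and TNFα, and 10 μg/mL each of antibodies that block IL-4 and IFNγ. The other 8 libraries, 2 each of WT and RARα TG without RA and of RARα KO without and with 10 nM RA, were used for the shared estimate of spread and as reference values. The sources used here do not give the construct or promoter behind the TG label, the allele behind the KO label or the ages of the mice.

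RA is the active derivative of vitamin A. It binds the nuclear receptors RARα, RARβ and RARγ, which sit on DNA as pairs with an RXR partner; without ligand the pair recruits corepressors, and with ligand it releases them and recruits coactivators. In CD4 T cells RA is known for inducing gut-homing receptors, for favouring Foxp3 in the presence of TGF-β and for opposing the Th17 programme.

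The 12 libraries held between 16289923 and 25534479 reads, with 16969604 and 16289923 in WT with RA and 16798986 and 25415007 in TG with RA. Replicates of a group correlated at 0.981 to 0.987 across genes. Nothing in the labels ties replicates to separate animals; a p-value here reflects only how much these libraries varied. By Xist and Y-linked genes the WT libraries came from males, the first TG replicate at each dose from a male and the second from a female. All libraries labelled KO came from females. Sex is therefore unequal between the groups, and libraries labelled KO differ from WT in sex as well as in label. WT with RA replicate 2 held more RNA of antigen-presenting cells than the other 3 libraries with RA compared here. Summed FPKM of 10 dendritic-cell and class II genes was 26.3 and 167 in WT and 32.5 and 43.5 in TG, and that of 12 B-cell genes 58.1 and 139 in WT and 112 and 112 in TG. By limma none of the 6 tested dendritic-cell and class II genes or the 11 tested B-cell genes was called (1 and 0 at an unadjusted p under 0.05, and 0 with voom). The CD4 T-cell markers Cd4 (82.0 and 76.2 FPKM in WT, 87.7 and 76.8 in TG) and Cd3e were present throughout. Of 9 such markers tested 1 was called higher, Cd3e (0.28), and 2 lower, Cd5 (−0.87) and Cd2 (−0.58), with a median of −0.04. Of 2 tested macrophage and monocyte genes Cd68 was called lower (−0.56). That call ended without WT replicate 2 (−0.49), TG replicate 1 (−0.53) or TG replicate 2 (−0.58).

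Rara itself checked the labels. Its FPKM was 126 and 119 in TG with RA and 12.3 and 14.2 in WT with RA. Without RA it was 72.8 and 63.3 in TG and 16.6 and 18.9 in WT. The libraries labelled KO had 19.5 and 19.2 without RA and 16.8 and 17.6 with RA, within or above the range of WT, so counts over the whole gene (chr11:98927818-98974942 in GRCm38) showed no loss under that label, and the KO libraries are called by their label only. Both TG libraries with RA lay above all 10 others. The difference of TG from WT with RA was 3.12 ± 0.09 (log2 of FPKM + 1 ± SE, n = 2 and 2) with an adjusted p of 2.3e-06 by limma. Without RA it was 1.88, and the gap between the doses, 1.24 ± 0.13, also passed (adjusted p = 0.00093).

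A gene is said to have been called, or to have been higher or lower, where the Benjamini-Hochberg adjusted p of limma over all 11922 genes was under 0.05. In TG with RA 1369 genes were called (11.5%), 816 of them higher (6.84%) and 553 lower (4.64%). At 2-fold or more on the log2(FPKM + 1) scale 179 were higher (1.5%) and 57 lower (0.478%), and at 4-fold or more 33 were higher (0.277%) and 5 lower (0.0419%). The 2 groups of 2 did not overlap for 54.4% of all genes, so separation of the groups alone says little. The larger changes were more often gains than falls: the median difference was 0.56 among the higher genes and −0.37 among the lower, against −0.02 over all genes tested.

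The number of calls depended on single libraries: it was 1041 without WT replicate 1, 700 without WT replicate 2, 632 without TG replicate 1 and 626 without TG replicate 2, and 422 when the spread came from these 4 libraries alone. The genes higher by 2-fold or more numbered 169 to 181 when each library was left out in turn. A call with RA of a gene named below also held without each of these 4 libraries unless the loss is stated.

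**Figure D1:**
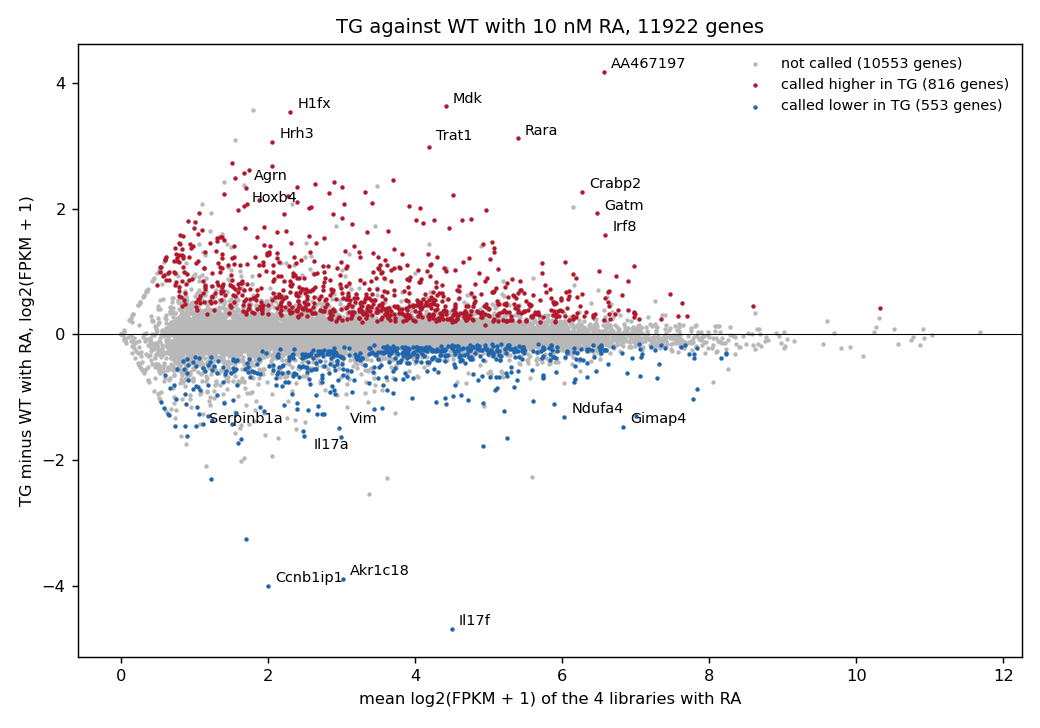
Difference between TG and WT with 10 nM RA (vertical axis, log2 of FPKM + 1) against the mean level of the 4 libraries (horizontal axis, same scale), 1 point per gene, red for the 816 called higher, blue for the 553 called lower. The points farthest from 0 are AA467197 at 4.18 above and Il17f at −4.69 below.

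Most genes that were higher had their highest values of the whole series in TG with RA. In 728 of the 816 higher genes (89.2%) both TG libraries with RA lay above all 10 other libraries, against 13.4% of all genes tested, and among those higher by 4-fold or more in 32 of 33. All 816 had been chosen as higher than WT with RA and lay above both of its libraries. Part of the gap to 13.4% is therefore built in by that choice. Of the 816, 78 had under 1 FPKM in all 10 other libraries; these passed the filter only through the TG libraries with RA and had to differ. Such genes made up 52 of the 179 higher by 2-fold and 10 of the 33 higher by 4-fold.

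Mdk, which encodes the heparin-binding growth factor midkine and is a classical RA-responsive gene, had the largest gain among the genes named by rule. Its FPKM was 4.72 and 5.42 in WT with RA and 82.2 and 66.8 in TG with RA, and at most 5.35 in the other libraries. The 2 groups were far apart, with a difference of 3.63 ± 0.12 (adjusted p = 2.4e-06 by limma). Trat1, a transmembrane adaptor of the T-cell receptor complex, had 6.98 and 4.31 FPKM in WT and 63.7 and 39.4 in TG (2.97 ± 0.30). Cttn, the actin-binding protein cortactin, had 4.17 and 4.95 against 31.9 and 27.0 (2.45). In none of these did a WT library reach a TG library.

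A second set was under 1 FPKM in WT. The linker histone gene H1fx went from 0.339 and 0.555 FPKM in WT to 13.7 and 18.2 in TG, the histamine receptor gene Hrh3 from 0.337 and 0.546 to 9.14 and 13.3, and the transcriptional coactivator gene Eya2 from 0.0795 and 0.124 to 6.69 and 5.90. Rem2, a small GTPase, had 0.366 and 0.327 in WT and 7.01 and 7.59 in TG. Hrh3, Eya2 and Rem2 were under 1 FPKM in all 10 other libraries. They passed the filter only through TG with RA and had to differ. The adenylate kinase gene Ak7 (17.2 and 15.2 in TG) and Agrn, which encodes the extracellular matrix protein agrin (11.1 and 10.6 in TG), were also among the 12 largest gains. The WT values of these last 2 were above 1 FPKM, at 2.06 and 2.36 for Ak7 and 1.24 and 1.42 for Agrn. The differences of these 6 genes lay between 2.35 and 3.54 on the log2(FPKM + 1) scale, which understates changes of low genes.

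AA467197 falls outside the naming rule because of its clone-type name and was chosen after its values were seen. It is the mouse counterpart of human C15orf48 (NMES1), whose product is a paralog of the respiratory-chain protein NDUFA4. Its FPKM was 20.2 and 22.3 in WT with RA, 7.37 and 9.76 in the libraries labelled KO with RA, and 417 and 386 in TG with RA. The 6 libraries without RA lay between 0.842 and 2.02. The TG–WT difference with RA, 4.18 ± 0.17 (adjusted p = 4.6e-06 by limma), was the largest gain of any gene called, and without RA the difference was −0.36 (adjusted p = 0.3). Mir147, annotated within an exon of the AA467197 3′ UTR, was listed at 0 in all 12 libraries. How reads in overlapping genes were counted is not given, so this does not show whether Mir147 was expressed. The neighbouring gene Gatm, which encodes an enzyme of creatine synthesis, had 41.9 and 47.1 FPKM in WT and 165 and 178 in TG (1.92 ± 0.21).

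The promoter of AA467197 is shown because it holds a direct repeat of the RAR half-site (A or G, then G, then G or T, then T, C, A) with no spacer, called DR0. The RefSeq entry (GRCm38.p6) runs from 250 bases before to 50 after the start on the plus strand of chr2. The stretch of 30 bases at chr2:122637681-122637710 holds the match in capitals, read on the opposite strand, 197 to 186 bases before that start.
AA467197: tatcacaccTGAACCTGAACCtcccagacg
On either strand DR0 occurs in 0.213% of 32851 RefSeq promoters of this length. Repeats with 1, 2 or 5 bases between the half-sites (DR1, DR2 and DR5) occur in 0.222%, 0.268% and 0.0974%. Among the genes called higher, 591 had a promoter entry and 1 of them, 0.169%, held DR0, against 0.0963% of 8311 tested genes with an entry. Among the genes called lower it was 2 of 412 (0.485%). DR1 was held by 2 of the 591, DR2 by 1 and DR5 by 0. None of the 4 repeats was found in the 12 named genes with the largest gains (6 with an entry) or the 12 with the largest falls (10 with an entry). Nor was any found in the 14 tested RA-induced genes described below (12 with an entry). The search was planned for DR1, DR2 and DR5, and DR0 was added to it. A match is a string of letters and not a measured binding site.

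Ndufa4, which encodes the NDUFA4 subunit of the respiratory chain, went the other way. Its FPKM was 99.1 and 105 in WT with RA and 41.9 and 38.9 in TG with RA, while the other 8 libraries lay between 105 and 118. The TG libraries with RA thus stood alone, with a difference of −1.32 ± 0.06 (adjusted p = 9e-06), against 0.01 without RA. The family of 77 tested genes of the respiratory chain and ATP synthase was looked at after the values were seen. Against 4.64% lower and 6.84% higher over all genes tested, 5 of the 77 were lower and 1 higher, with a median of −0.10. The other lower members were Ndufs5 (−0.63), Ndufb11 (−0.45), Ndufa9 (−0.28) and Uqcr11 (−0.23). None of these 4 calls held without WT replicate 2, TG replicate 1 or TG replicate 2; without WT replicate 2 the differences were −0.48, −0.36, −0.24 and −0.19. The call of Uqcr11 also ended without WT replicate 1 (−0.27).

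Hox genes, the homeobox genes that set body-axis position and that RA induces in embryos, were also detected in TG with RA; the family was chosen after the values were seen. Of the 39 Hox genes listed, 28 had any read, and none exceeded 0.766 FPKM in the 10 other libraries. Hoxb4 had 0.39 and 0.766 FPKM in WT with RA and 5.10 and 5.86 in TG with RA. Hoxb3 had 0.0416 and 0.101 against 2.97 and 3.17, and Hoxa4 0.0739 and 0.308 against 2.58 and 2.57. Because the 6 Hox genes tested passed the filter only through TG with RA, they were also fitted with no filter: 9 of 28 were then called, each of them higher, against 3.32% of all 25908 genes called higher in that fit. Halr1, a noncoding RNA of the Hoxa cluster, was listed at 0 in the 10 other libraries and had 3.28 and 1.85 FPKM in TG with RA.

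**Figure D2:**
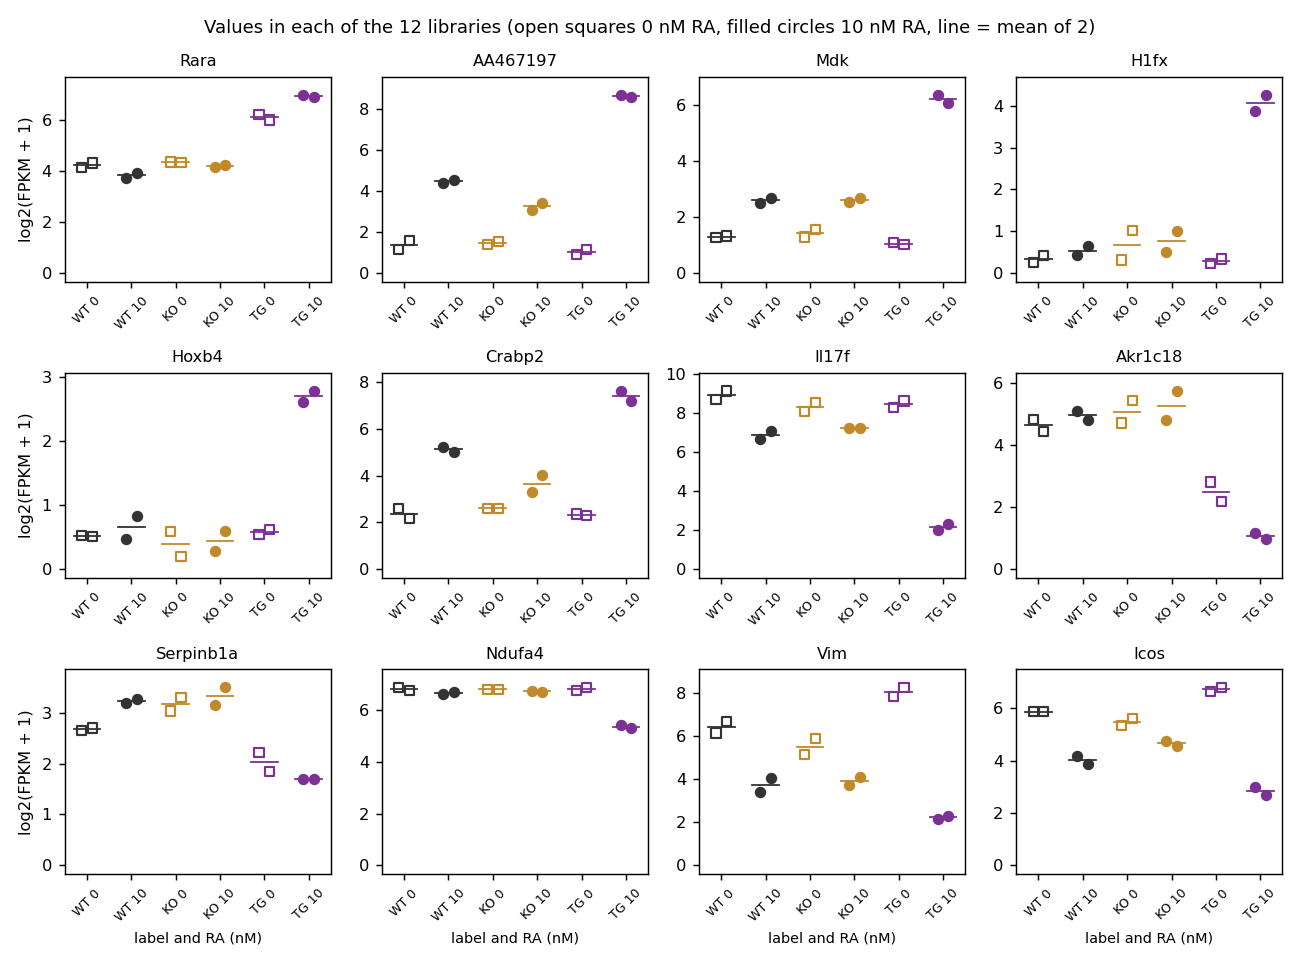
Level of 12 genes in each of the 12 libraries (vertical axis, log2 of FPKM + 1), grouped by label and RA dose in nM (horizontal axis), with open squares for 0 nM, filled circles for 10 nM and lines for the mean of 2 libraries. TG with RA stands apart from all other groups for AA467197, Mdk, H1fx, Hoxb4, Crabp2, Il17f and Ndufa4.

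Among the receptors, Rarg, the gene of RARγ, was higher as well, with 2.32 and 2.36 FPKM in WT and 6.2 and 5.99 in TG (1.09 ± 0.15, adjusted p = 0.0025 by limma). The RXR partners were not called, at −0.10 for Rxra and −0.17 for Rxrb, and Rarb stayed at or under 0.00747 FPKM in the 4 libraries. Of 17 corepressors and coactivators tested, 2 were higher, Nrip1 (0.48) and Tbl1xr1 (0.26), a share of calls of 11.8% against 11.5% of all genes. The list median was 0.01, and neither call held without any 1 of the 4 libraries.

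Genes that handle RA were among the clearest gains. Crabp2, which carries RA to the receptor in the nucleus, had 36.5 and 31.7 FPKM in WT and 196 and 143 in TG, with at most 15.1 in the libraries labelled KO and 5.03 in WT and TG without RA. That is a difference of 2.27 ± 0.24 (adjusted p = 0.0006). Dhrs3, which reduces retinaldehyde back to retinol, had 0.946 and 1.32 in WT and 6.61 and 5.36 in TG (1.71). Cyp26b1, which breaks RA down, was at most 0.0551 FPKM in the 10 other libraries and 2.71 and 1.57 in TG with RA; it too passed the filter only through that group. Cyp26a1, a second RA hydroxylase, was not tested, with 0.0665 and 0.0692 FPKM in WT and 1.01 and 0.821 in TG. The membrane receptor for retinol-binding protein, Stra6, had 8.5 and 14.8 against 37.5 and 39.7 (1.69 ± 0.35), a call that ended without WT replicate 1 (1.33), TG replicate 1 (1.73) or TG replicate 2 (1.65). Fabp5, the fatty-acid-binding protein that can also carry RA, was lower (−0.59), and not called without WT replicate 2 (−0.46), TG replicate 1 (−0.62) or TG replicate 2 (−0.56). Of 9 tested carriers, transporters and enzymes 4 were higher and 1 lower (55.6% called, against 11.5% of all genes), with a median of 0.07.

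A list of textbook RA-induced genes, chosen with earlier results of these data known, had 14 tested members. Of these 11 were called (78.6%, against 11.5% of all genes), each of them higher, with a median of 1.04. Cyp26b1 among them passed the filter only through TG with RA. Besides those above, the 11 included Ccr9, the gut-homing chemokine receptor, at 2.70 and 1.41 FPKM in WT and 11.3 and 10.9 in TG (2.02 ± 0.17). Asb2, a ubiquitin ligase subunit, had 1.40 and 1.96 against 6.82 and 7.88 (1.65). Smaller gains in the transcriptional repressor genes Nrip1 (0.48) and Gfi1 (0.78) did not hold without any 1 of the 4 libraries, where they were 0.42 to 0.54 and 0.76 to 0.80. The count of higher members was 6 to 8 when 1 library was left out. Not called were the repressor gene Hic1 (28.2 and 24.5 FPKM in WT, 45 and 51.1 in TG, adjusted p = 0.066), the integrin gene Itga4 (0.30, adjusted p = 0.23) and the transglutaminase gene Tgm2, at 43.2 and 56.1 in WT and 49.9 and 47.4 in TG (−0.02, adjusted p = 0.96).

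Il17f, one of the 2 interleukin-17 genes that define Th17 cells, had the largest fall of any gene. Its FPKM was 98.6 and 131 in WT with RA and 2.97 and 3.97 in TG with RA. Without RA it was 412 and 554 in WT and 307 and 389 in TG. In the libraries labelled KO it was 147 and 150 with RA. No other library came near the TG pair with RA, and the difference from WT was −4.69 ± 0.22 (adjusted p = 6.9e-06 by limma). Il17a, its neighbour on chromosome 1, had 7.35 and 10.6 FPKM in WT and 1.98 and 2.42 in TG (−1.63 ± 0.20, adjusted p = 0.0013). Fewer cells that express a gene and less RNA per cell cannot be told apart in bulk samples.

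Of 23 tested Th17 genes 10 were lower and 1 higher (47.8% called, against 11.5% of all genes). The median was −0.39, against −0.02 over all genes. Ahr, the aryl hydrocarbon receptor, had 31.6 and 29.1 against 12.3 and 14.9 (−1.11 ± 0.09, adjusted p = 0.0002). Irf4, a factor that Th17 differentiation requires, had 325 and 328 against 249 and 251 (−0.38). For both Ahr and Irf4 the TG libraries with RA were the lowest of all 12. Ccr6, the chemokine receptor of Th17 cells, had 9.76 and 17.3 in WT and 2.76 and 4.46 in TG (−1.63 ± 0.32), a call that ended without WT replicate 2 (−1.25) or TG replicate 1 (−1.36). Its ligand gene Ccl20 (−1.45) and Hif1a (−0.48) did not hold without any 1 of the 4 libraries. Il1r1 (−0.54) and Il12rb1 (−0.60), cytokine receptor chains, did not hold without WT replicate 2 (−0.37 and −0.43), TG replicate 1 (−0.51 and −0.50) or TG replicate 2 (−0.58 and −0.71).

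The member that was higher was Runx1, at 19.6 and 18.1 FPKM in WT and 27.1 and 29.9 in TG (0.57), not called without WT replicate 2 (0.52) or TG replicate 2 (0.50). The other 12 tested Th17 genes were not called: Rora had 12.8 and 13.5 against 11.9 and 14.5 FPKM (−0.00), Stat3 101 and 94.7 against 98.8 and 97.7 (0.01), and Batf 109 and 125 against 114 and 107 (−0.08). Il22 was low in both groups, at 0.531 and 0.664 against 0.375 and 0.319 (adjusted p = 0.81). The number of Th17 genes called lower was 8 without WT replicate 1, 5 without WT replicate 2, 5 without TG replicate 1 and 6 without TG replicate 2, and 7 with a term for sex.

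The promoters of 3 Th17 genes that were lower are shown with the half-site AGGTCA, a form of the sequence that RARs and other nuclear receptors recognise. Each stretch is of 200 bases from RefSeq (GRCm38.p6), written in the direction of the gene. In Il17f (chr1:20784271-20784470, minus strand) the capitals mark the half-site 58 to 53 bases before the start. In Il17a (chr1:20730705-20730904, plus strand) and Ccr6 (chr17:8235843-8236042, plus strand) they mark its reverse complement, 120 to 115 and 44 to 39 bases before the start.
Il17f: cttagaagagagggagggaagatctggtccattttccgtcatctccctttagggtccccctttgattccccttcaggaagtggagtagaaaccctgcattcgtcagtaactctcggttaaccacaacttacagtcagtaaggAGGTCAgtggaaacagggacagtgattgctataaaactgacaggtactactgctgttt
Il17a: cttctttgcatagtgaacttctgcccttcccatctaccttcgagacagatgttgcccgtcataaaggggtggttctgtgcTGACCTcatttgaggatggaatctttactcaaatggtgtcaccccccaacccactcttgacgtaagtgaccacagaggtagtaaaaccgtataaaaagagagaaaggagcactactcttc
Ccr6: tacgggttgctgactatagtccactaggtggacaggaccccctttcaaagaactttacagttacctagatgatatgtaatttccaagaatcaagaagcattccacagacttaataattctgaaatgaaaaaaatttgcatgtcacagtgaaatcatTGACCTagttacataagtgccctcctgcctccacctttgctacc
On either strand AGGTCA occurs in 16.3% of all RefSeq promoters of the 300-base window. Of the 12 named genes with the largest falls 10 had an entry and 7 held AGGTCA. Of the 12 with the largest gains 6 had an entry and 3 held it. Over all lower genes with an entry it was 52 of 412 (12.6%), over all higher genes 95 of 591 (16.1%), and over all genes tested 1201 of 8311 (14.5%).

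Regulatory T-cell genes moved both ways: 8 of 20 tested were higher and 2 lower, with a median of 0.32. Foxp3, the lineage factor, had 50.4 and 57.1 FPKM in WT and 89.4 and 97.2 in TG; the groups did not overlap, and the difference of 0.79 ± 0.25 did not pass (adjusted p = 0.083 by limma). With only the 4 libraries in the fit it did (adjusted p = 0.031), and with 1 library left out it did not (adjusted p = 0.18 to 0.28). Higher were Itgae, the integrin chain CD103 that holds T cells in epithelium (2.89 and 1.72 FPKM against 11.8 and 17.8, 2.25 ± 0.22), Nrp1, a surface receptor of thymus-derived regulatory cells (1.96 and 1.62 against 6.61 and 5.10, 1.29), and Izumo1r, the folate receptor 4 gene (59.0 and 66.5 against 127 and 127, 1.01). Tgfb1 had 34.1 and 32.1 against 48.0 and 51.3 (0.57), a call that ended without WT replicate 2 (0.53) or TG replicate 2 (0.52). Ctla4, the inhibitory receptor typical of these cells, was lower, at 300 and 328 FPKM in WT and 149 and 157 in TG (−1.03 ± 0.11, adjusted p = 0.00079). Tnfrsf18, which encodes GITR, was lower too (−0.31). The number called higher was 4 to 6 when 1 library was left out.

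Of 19 tested Th1 and cytotoxic genes 2 were higher and 1 lower (15.8% called, against 11.5% of all genes), with a median of −0.27. The lineage factor gene Tbx21 had 5.33 and 8.69 FPKM in WT and 17.0 and 14.7 in TG (1.1 ± 0.29), and the granule protein gene Nkg7 5.35 and 10.1 against 33.7 and 31.8 (2.01 ± 0.37). Neither call held without WT replicate 1 (0.80 and 1.61), TG replicate 1 (1.00 and 1.97) or TG replicate 2 (1.2 and 2.05). Ifng was at or under 1.42 FPKM in the 4 libraries (adjusted p = 0.43). The granzyme gene Gzma had 1.11 and 11.5 FPKM in WT against 0.710 and 0.939 in TG, so its WT replicates differed more than the groups, in the library that also held more class II RNA. The chemokine gene Ccl4 was lower (−1.08), and not called without WT replicate 2 (−0.74) or TG replicate 2 (−0.92). Of 10 tested Th2- and Th9-associated genes 2 were called (20.0%, against 11.5% of all genes), both lower. They were the chemokine receptor gene Ccr4 (37.2 and 42.7 FPKM against 23.6 and 25.6, −0.68) and the transcription factor gene Crem (−0.51), the latter not without WT replicate 2 (−0.48) or TG replicate 2 (−0.38). Il9 had 9.35 and 15.5 against 4.33 and 10.1 (adjusted p = 0.32).

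**Figure D3:**
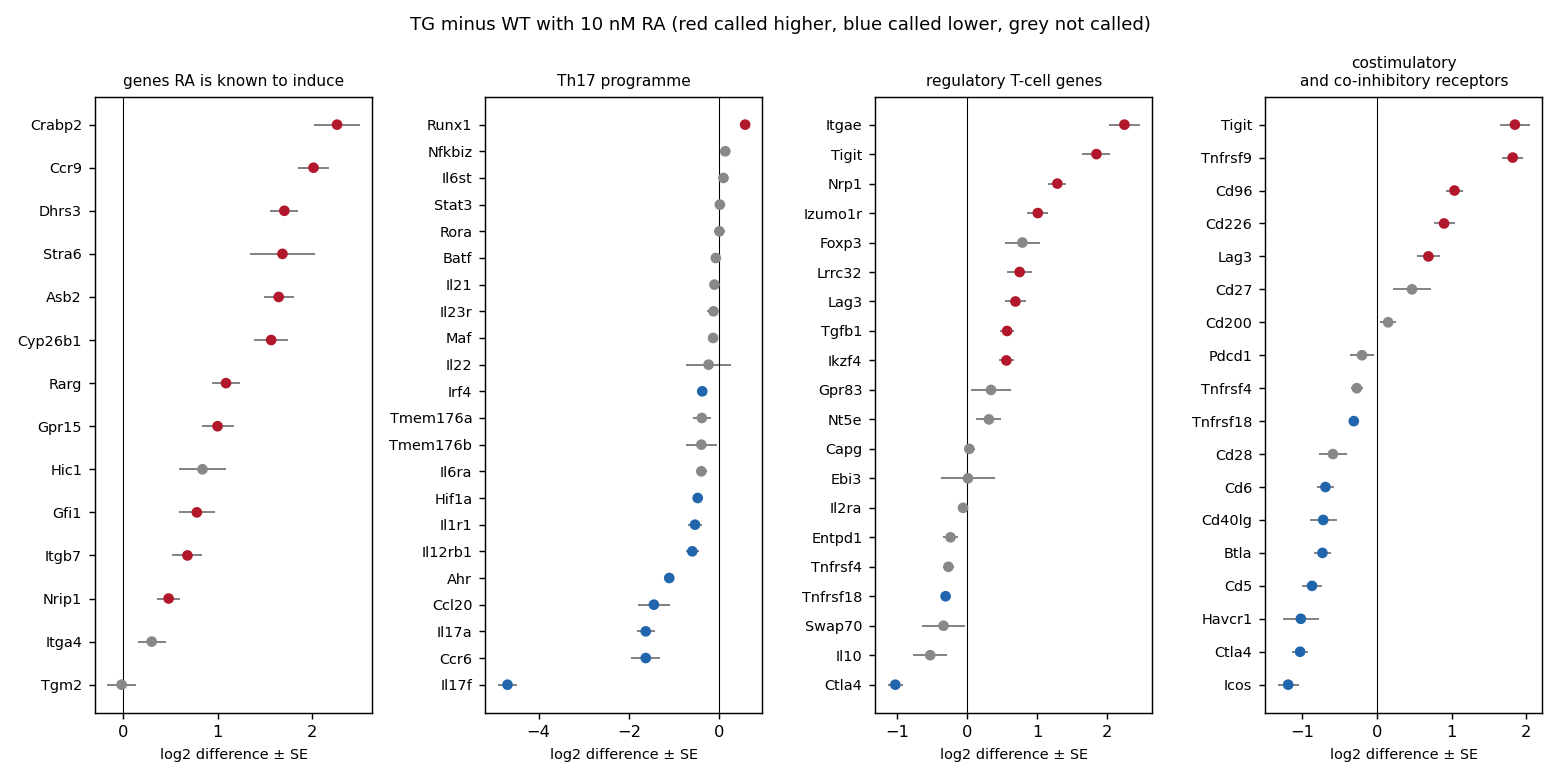
Difference between TG and WT with 10 nM RA for the members described of 4 gene lists (horizontal axis, log2 of FPKM + 1, with bars of 1 SE), red for called higher, blue for called lower, grey for not called. In the RA-induced list 11 of 14 points are red, and in the Th17 list Il17f at −4.69 lies farthest out.

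Among 17 tested homing and migration genes 4 were higher and 1 lower (29.4% called, against 11.5% of all genes), with a median of 0.11. Ccr9 and Itgae, given above, were the largest. Itgb7, the integrin chain that pairs with Itga4 for entry into gut, had 49.4 and 36.4 FPKM in WT and 72.1 and 64.7 in TG (0.68), not called without WT replicate 2 (0.46), TG replicate 1 (0.60) or TG replicate 2 (0.75). Gpr15, a receptor for homing to the large intestine, had 0.32 and 0.238 against 1.2 and 1.95 (1.00), not called without WT replicate 2 (0.95) or TG replicate 2 (0.78). The lymph-node genes Ccr7 (−0.22) and S1pr1 (−0.62) were not called. Of 16 naive-state genes 1 was (6.2%, against 11.5% of all genes), the antiproliferative gene Btg2 (−0.62, lower, not without WT replicate 2 (−0.60) or TG replicate 2 (−0.51)).

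Of 18 tested surface receptors that tune T-cell activation 13 were called (72.2%, against 11.5% of all genes), 8 lower and 5 higher, with a median of −0.29. The costimulator gene Icos had 17.0 and 13.8 FPKM in WT and 7.03 and 5.39 in TG (−1.19 ± 0.14, adjusted p = 0.0011). Cd5, a brake on T-cell receptor signals, had 318 and 296 against 178 and 158 (−0.87), Cd6 197 and 199 against 125 and 119 (−0.69), and Btla 37.1 and 35.7 against 24.4 and 19.0 (−0.73). All 4 were lowest in the TG libraries with RA among the 12. In the other direction Tnfrsf9, the costimulator 4-1BB, had 8.34 and 10.1 FPKM in WT and 38.2 and 31.9 in TG (1.82 ± 0.14, adjusted p = 0.00014). The receptor genes Tigit, Cd96 and Cd226, which share nectin-like ligands, were higher together: Tigit had 2.63 and 3.89 against 15.7 and 12.9 (1.85), Cd96 25.7 and 21.5 against 47.9 and 50.6 (1.04), and Cd226 2.65 and 3.02 against 6.44 and 5.86 (0.90). Lag3 (0.69) did not hold without any 1 of the 4 libraries.

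In the cytokine receptor list 5 of 18 tested were higher and 2 lower (38.9% called, against 11.5% of all genes), with a median of 0.08. The count of higher members was 2 without TG replicate 1, where the median was −0.04, 3 without WT replicate 2 and 4 without either of the others; it was 2 with only the 4 libraries in the fit. Ifngr1, a chain of the interferon-γ receptor, had 36.3 and 36.9 FPKM in WT and 79.0 and 67.4 in TG (0.97 ± 0.10), and the TNF receptor gene Tnfrsf1b 37.5 and 38.4 against 60.0 and 58.4 (0.63). The T-cell growth factor gene Il2 was lower, at 44.3 and 46.3 against 24.4 and 23.5 (−0.89 ± 0.07), as it was without RA (−1.2). The interleukin-10 receptor gene Il10ra was higher (0.80), but not called without TG replicate 1 (0.73).

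TGF-β genes were called in 1 direction: 10 of 19 tested were higher (52.6% called, against 11.5% of all genes), with a median of 0.27. Itgae, given above, was among the largest. Ltbp3, a protein that holds latent TGF-β in the matrix, was at most 0.0649 FPKM in the 10 other libraries and 1.75 and 1.94 in TG with RA, and the ligand gene Tgfb3 at most 0.236 and then 2.20 and 1.38; both passed the filter only through that group. Pmepa1, a feedback inhibitor of the pathway, had 61.5 and 67.3 against 80.9 and 82.3 (0.34). The receptor gene Tgfbr2 had 35.3 and 28.8 against 51.9 and 46.4 (0.61), not called without WT replicate 2 (0.46), TG replicate 1 (0.53) or TG replicate 2 (0.68). The count of higher members was 5 to 8 when 1 library was left out, and 4 with only the 4 libraries in the fit.

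Transcription factors of several families were called. Irf8, which directs myeloid fates and is also induced in activated T cells, had 47.3 and 62.8 FPKM in WT and 165 and 165 in TG (1.58 ± 0.19, adjusted p = 0.0011). Zbtb32, a repressor of activated lymphocytes, had 4.62 and 8.72 against 29.5 and 29.7 (2.05 ± 0.30). Both TG libraries lay above all WT libraries in each case. Of 8 interferon regulatory factors 2 were higher (Irf8 and Irf5) and 2 lower (Irf4 and Irf3). Irf5 (0.95) was not called without WT replicate 1 (0.61), TG replicate 1 (0.89) or TG replicate 2 (1.00), and Irf3 (−0.20) not without WT replicate 1 (−0.20), WT replicate 2 (−0.21) or TG replicate 2 (−0.17). Of 20 tested fate regulators 5 were called, each of them higher (1 without WT replicate 2, 1 without TG replicate 2 and 3 without either of the others), while Bcl6 (−0.20), Tcf7 (0.03) and Bach2 (−0.22) were not.

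Serpinb1a, a protease inhibitor associated with Th17 cells, was lower, at 8.16 and 8.72 FPKM in WT and 2.25 and 2.27 in TG (−1.53 ± 0.15, adjusted p = 0.00043). The intermediate filament gene Vim was lower, at 9.51 and 15.3 against 3.45 and 3.82 (−1.50 ± 0.31), and Lgals1, which encodes galectin-1, at 87.1 and 119 against 61.3 and 64.8 (−0.68). Neither Vim nor Lgals1 held without WT replicate 2 (−1.18 and −0.46), TG replicate 1 (−1.44 and −0.64) or TG replicate 2 (−1.56 and −0.72). Trdc, the constant segment of the δ T-cell receptor chain, was lower, at 7.64 and 7.85 against 3.36 and 3.58 (−0.97), as without RA (−0.89). Whether cells of that lineage have a part in the fall of Il17f and Il17a was not tested; Trdc was as low in TG without RA (3.42 and 3.57), where Il17f was 307 and 389.

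Of 24 tested mitosis genes none was called by limma (0 at an unadjusted p under 0.05, and 0 with voom). Their median was −0.04. Of 25 replication genes 3 were called, each of them lower, a share of calls close to the 11.5% of all genes. Among these 3 were the helicase genes Mcm2 (−0.24) and Mcm3 (−0.31). Neither held without WT replicate 2 (−0.23 and −0.23) or TG replicate 1 (−0.23 and −0.27), nor Mcm2 without TG replicate 2 (−0.25), and 0 to 4 replication genes were called when 1 library was left out. Of 25 glycolysis and hypoxia genes 6 were lower (24.0% called, against 11.5% of all genes), with a median of −0.13. Egln3, the oxygen-sensing prolyl hydroxylase, had the largest of these falls, at 79.5 and 92.8 FPKM in WT and 40.6 and 37.5 in TG (−1.12 ± 0.10, adjusted p = 0.00027), and the glucose transporter gene Slc2a3 was lower by a log2 difference of −0.61. In a joint list of Myc-network and ribosome-biogenesis genes 28 were tested, 6 lower and 2 higher (28.6% called, against 11.5% of all genes). The 6 lower were ribosome-biogenesis genes, by −0.20 to −0.28. The 2 higher were the Myc-network genes Mxi1 (0.50) and Max (0.37). Neither of these 2 was called without WT replicate 2 (0.45 and 0.24) or TG replicate 1 (0.50 and 0.29), nor Max without TG replicate 2 (0.45). The glycolysis count was 2 to 4 and the ribosome count 0 to 5 when 1 library was left out, and each was 2 with a term for sex.

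In 3 other lists each called member was higher. The shares of calls were 25.0% in the sterol and fatty acid list and 41.7% in the interferon-stimulated list, against 11.5% of all genes. Of 20 sterol and fatty acid synthesis genes 5 were higher, by 0.30 to 0.48, a count of 0 to 7 with 1 library left out. Of 12 interferon-stimulated genes tested 5 were higher, with a median of 0.26; the count was 4 without WT replicate 2 and 3 without any 1 of the other 3 libraries. Usp18, which dampens interferon signalling, had 1.37 and 1.32 FPKM in WT and 5.74 and 4.82 in TG (1.42 ± 0.17), and the antiviral gene Ifit2 11 and 9.44 against 19.9 and 18.7 (0.86). Xbp1, the transcription factor of the unfolded protein response, had 47.2 and 45 against 70.3 and 67.4 (0.57 ± 0.05), in a list where 2 of 22 were called (1 without WT replicate 2, TG replicate 1 or TG replicate 2). The share of calls in that list was 9.1%, against 11.5% of all genes. In T-cell receptor signalling the calls went both ways: 3 of 41 were higher and 2 lower, with a median of −0.02, a share of calls of 12.2% against 11.5% of all genes. Higher were Themis, a signalling protein of developing T cells, at 7.62 and 6.67 against 14.2 and 14 (0.89), and Dgkz, which removes diacylglycerol, at 40.1 and 39.0 against 52.9 and 50.9 (0.38), and the receptor chain gene Cd3e (0.28), which did not hold without any 1 of the 4 libraries. Lower were the adaptor gene Lat (−0.38), not without WT replicate 1 (−0.32), TG replicate 1 (−0.40) or TG replicate 2 (−0.35), and Malt1, a protease of NF-κB signalling (−0.47), not without TG replicate 1 (−0.41).

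**Figure D4:**
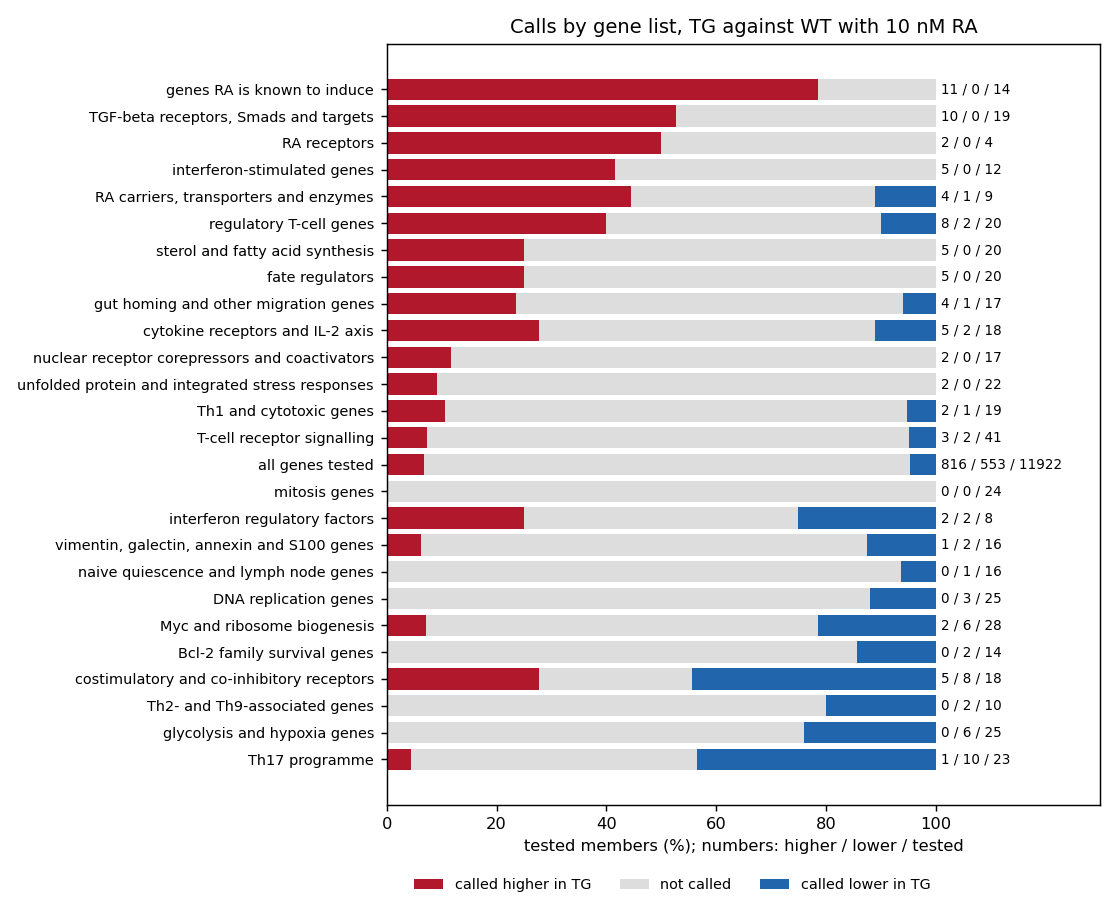
Share of the tested members of each gene list called higher (red) or lower (blue) in TG against WT with 10 nM RA (horizontal axis, percent), with the counts of higher, lower and tested genes at the right. Over all genes tested the counts are 816, 553 and 11922; the RA-induced list has the largest share called higher and the Th17 list 10 of 23 called lower.

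Without RA the same genotypes differed in fewer genes, 514 of 11922 (4.31%), 268 of them higher in TG (2.25%) and 246 lower (2.06%), and the 2 contrasts share no library. Same-numbered libraries of a label may still share a source of cells across doses, which the labels do not give. Of the 816 genes higher with RA, 66 were also higher without it (8.1% of these and 24.6% of the 268), and 58 were lower without it. Of the 553 lower with RA, 60 were also lower without it (10.8%, and 24.4% of 246) and 28 were higher. The other 1157 were called only with RA present, which alone does not show a difference between doses; the direct test of that difference called 892 genes (7.48%), 566 in favour of TG with RA (4.75%) and 326 the other way (2.73%). They included 389 of the 692 higher only with RA and 147 of the 465 lower only with RA. The count of 514 was 161 without WT replicate 1, 137 without WT replicate 2, 224 without TG replicate 1 and 131 without TG replicate 2 of the cells without RA.

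Some genes crossed over between the doses. Irf8 was lower in TG without RA, at 4.38 and 5.05 FPKM against 17.6 and 21.4 in WT (−1.84), and higher with RA, a gap of 3.42 between doses (adjusted p = 0.00024). Izumo1r had 2.27 and 1.55 against 23.6 and 23.3 without RA (−3.08) and a gap of 4.09. Vim and Icos crossed in the other direction: Vim had 224 and 303 FPKM in TG and 68.9 and 99.0 in WT without RA (1.65), and Icos 99.4 and 111 against 57.9 and 57.5 (0.86). Their gaps were −3.15 and −2.04. Foxp3 was lower in TG without RA, at 3.66 and 4.29 against 9.95 and 12.3 (−1.28, adjusted p = 0.028), and its gap of 2.07 passed although the difference with RA did not. The Gimap genes, GTPases of lymphocyte survival, were looked at after their values were seen. With RA 1 of the 8 tested was higher, 2 were lower and 5 were not called, with a median of 0.14. Over all genes tested 6.84% were higher and 4.64% lower. Gimap5 crossed over, at −1.43 without RA and 0.55 with RA, both called. Gimap4 did not cross and was lower at both doses: 203 and 175 FPKM in WT against 91.0 and 49.8 in TG with RA (−1.47), and 95.1 and 93.2 against 5.08 and 4.84 without RA (−4.00).

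**Figure D5:**
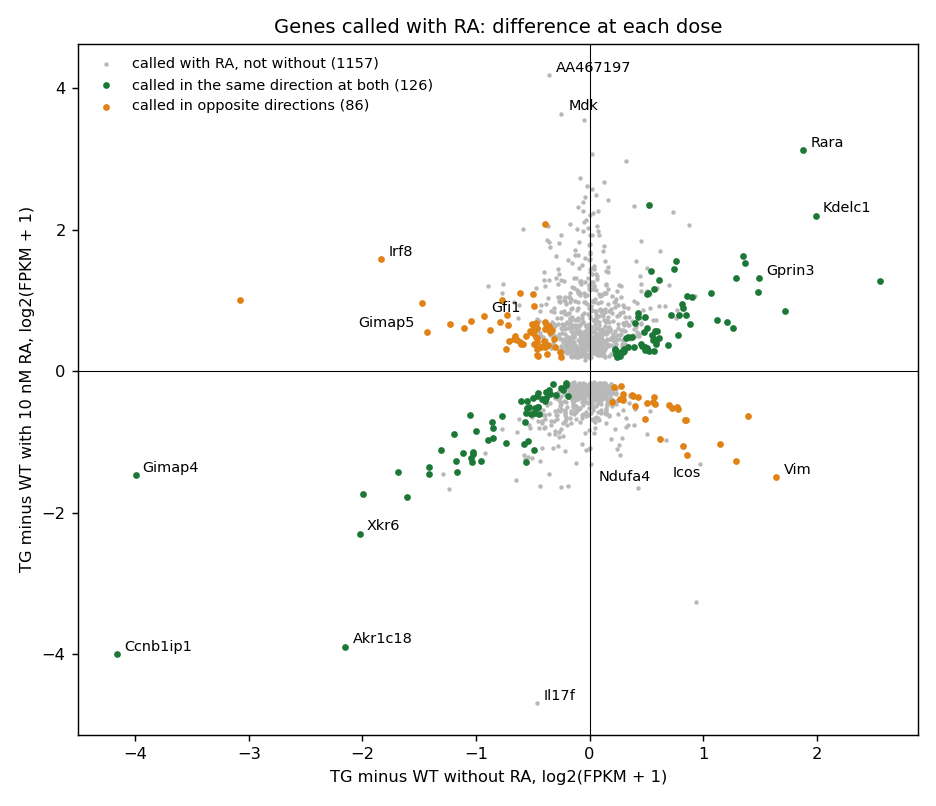
Difference between TG and WT without RA (horizontal axis) and with 10 nM RA (vertical axis), both in log2 of FPKM + 1, for the 1369 genes called with RA. Green points (126) were called in the same direction at both doses, orange points (86) in opposite directions, and grey points (1157) with RA and not without it.

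A few genes differed between the labelled lines whatever the dose, with no call for a difference between doses. Ccnb1ip1, which encodes a regulator of meiotic crossing over, had 13.1 and 17.2 FPKM in WT with RA and 14.5 and 19.7 without, and was listed at 0 in all 8 TG and KO libraries. Xkr6 had 3.88 and 4.51 in WT with RA, at most 0.0574 in TG with RA and at most 0.0229 in the libraries labelled KO with RA. Akr1c18, an enzyme that inactivates progesterone, had 33.7 and 27.0 in WT and 1.23 and 0.978 in TG with RA (−3.89 ± 0.35), and 27.6 and 20.7 against 6.00 and 3.50 without RA (−2.15). Gprin3 (1.31 with RA and 1.49 without), Ncmap (1.63 and 1.35) and Kdelc1 (2.19 and 1.99) were higher in TG at both doses. In Kdelc1 the libraries labelled KO were high as well, at 8.11 and 8.96 FPKM with RA against 2.17 and 0.595 in WT. Of 46 tested segments of the T-cell receptor α locus 11 were lower and 3 higher in TG with RA, with a median of −0.22. Over all genes tested 4.64% were lower and 6.84% higher. Near-identical segments share reads, and the values of these segments are uncertain.

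The libraries labelled KO give a response to RA measured in cells that share no library with WT or TG. In them 17 genes were called between 10 nM and no RA (0.143%), 16 of them higher (0.134%) and 1 lower (0.00839%), the galectin-3 gene Lgals3. Of these 16, 10 were also higher in TG against WT with RA, which is 62.5% of the 16, against 6.84% of all genes, and 1.23% of the 816. They were AA467197, Mdk, Cttn, Gfi1, Nrip1, Podnl1, Phldb3, Pstpip1, Cpm and Slc12a4, the last not called without TG replicate 2 (0.35). Of the same 16, 1 was lower in TG against WT, a T-cell receptor segment, and 5 were not called. The sizes differed from gene to gene. Mdk changed by 1.19 with RA in the KO-labelled cells and by 3.63 between TG and WT, whereas the chromatin repressor gene Hic1 changed by 2.95 and 0.84 and Itga4 by 2.33 and 0.30, the latter 2 not called in TG against WT. Of all 816 higher genes 649 (79.5%) had a positive RA difference in the KO-labelled cells, against 53% of all genes, and of the 553 lower genes 375 (67.8%) had a negative one, against 46.8%.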

How the data were processed

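RNA from 12 libraries of CD4 T cells was sequenced as single 100-base reads from TruSeq stranded libraries, per the labels' protocols. The authors deposited FPKM per gene for 52635 genes. Tools and builds named in the submitters' processing notes are Trimmomatic 0.32, STAR, HTSeq 0.6.1, DESeq2, GRCm38.p5 and mm10, without roles; which annotation and strand setting were used for counting is not given in the sources used here. After 27 symbols turned into dates by a spreadsheet were restored, 52488 identifiers matched GENCODE M21 (GRCm38), which gave positions and exon lengths. In all, 26727 genes were at 0 throughout, 0 value columns were unused and 0 library pairs held identical values. Depth was read from the FPKM step that 1 read makes (of values of up to 20 reads, 95.3 to 95.9% lay within 0.02 of whole reads). It limits counting error only.

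log2(FPKM + 1) of the 11922 genes with at least 1 FPKM in at least 2 libraries was fitted with limma 3.58.1 in R 4.3.3 (trend, 1 mean for each of 6 groups, 6 residual and 2.51 prior degrees of freedom), with two-sided Benjamini-Hochberg adjusted p-values and a threshold of 0.05. Tests were TG against WT with RA, the same without RA, their difference, and RA in the KO-labelled cells. The members, the gene lists and the alternatives were chosen with earlier results of these data known. Named by rule were the 12 largest gains and 12 largest falls among non-overlapping called genes with a group mean of at least 2 FPKM (no predicted genes, pseudogenes or receptor segments), up to 4 members of each list with the smallest p, a fixed set led by Rara, and genes that crossed between doses or differed alike at both. Other list members are described by their calls, and genes outside these were chosen after their values were seen. Lists are described by counts and medians, with no set test. A few of the genes so chosen are left out of the text, though list counts include them.

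Alternatives were a pseudocount of 0.1, no filter, upper-quartile scaling, only the libraries compared, a replicate block and each library left out. Chosen once the data had been seen were a term for sex, a test without genes of the sex chromosomes, and voom in limma on read numbers back-calculated by exon length (11910 genes). The code was tested on simulated data. Promoters came from RefSeq (GRCm38.p6). Python 3.11.15 with numpy 2.4.6, pandas 2.3.3 and matplotlib 3.10.9 handled tables and figures.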

Additional observations from a re-analysis of the deposited data

Results flagged for a closer look

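The effect of the TG label differed between the doses for 892 genes by limma's test of the difference itself (TG minus WT with RA, minus the same without RA). Among the genes named by rule that are described here, those with a gap of at least 2 on the log2 scale that favoured RA were Mdk (3.88), H1fx (3.59), Irf8 (3.42), Hrh3 (3.04), Eya2 (2.81), Trat1 (2.65), Rem2 (2.64), Nkg7 (2.59), Gimap4 (2.53), Cttn (2.49), Zbtb32 (2.42), Crabp2 (2.33), Ak7 (2.26), Tigit (2.23), Tnfrsf9 (2.17), Foxp3 (2.07) and Ccr9 (2.03). Gaps in the other direction were found for Il17f (−4.23), Vim (−3.15), Timp1 (−2.28) and Icos (−2.04). AA467197 (4.54), Izumo1r (4.09) and Gatm (2.17), described outside that rule, also had gaps that favoured RA. Hrh3, Eya2 and Rem2 passed the filter only through TG with RA. For most of the genes in the first direction the difference without RA was near 0. In Irf8, Foxp3, Gimap4 and Izumo1r it was negative and called, at −1.84, −1.28, −4.00 and −3.08.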

How the results depend on the processing

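With only the libraries compared in the fit, TG against WT had 422 called genes with RA (329 higher, 93 lower, 36 lower by 2-fold) and 47 without RA. A sex term gave 353 lower genes with RA and 200 calls without RA, against 553 and 514. Genes lower by 2-fold numbered 95 with a pseudocount of 0.1 and 89 with voom. Leaving out each library in turn gave 626 to 1041 calls with RA (434 to 643 higher, 166 to 398 lower, 34 to 58 lower by 2-fold, the lowest without WT replicate 2), 131 to 224 without RA and 469 to 716 for the difference between doses. The replicate block gave 1814 calls with RA and 823 without. Same-numbered libraries of different groups had correlated deviations of 0.004 to 0.327 (0.122 for WT and TG with RA). The numbers were therefore not taken to pair WT with TG. Within a label they may pair the doses: TG replicate 1 was male and TG replicate 2 female at both. Summed dendritic-cell and class II FPKM without and with RA was 23.8 and 26.3 in WT replicate 1, and 159 and 167 in WT replicate 2. The test of the difference between doses took all libraries as separate. Foxp3 was called with the block (adjusted p = 0.015). Summed FPKM of mitosis genes was higher in replicate 2, and that of naive-state genes in replicate 1, in all 6 groups. Under the alternatives no named gene that was called changed sign, whereas among uncalled values Tgm2 ranged from −0.20 to 0.17 and Ifng from −1.30 to 0.02. List medians also crossed 0 when 1 library was left out: naive-state genes from −0.20 to 0.10, mitosis genes from −0.04 to 0.19 and RA carriers from 0.07 to −0.04. The 103 named genes that were called gave 1235 values under the alternatives, of which 202 no longer passed, and 48 uncalled named genes gave 571, of which 29 passed. With 2 libraries in each group, small differences and low genes are limited by spread and depth.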
